A study of Mus musculus with 5 samples.

Results

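Transcripts of male germ cells and spermatids were followed on 5 mouse microarrays that compare reprogrammed fibroblasts with Leydig cells, the androgen-producing cells that lie between the seminiferous tubules. The set was a list of 32 germ cell genes, and a probe was taken as a member where the platform annotation gives it one of these symbols. Of the 32 genes, 31 had such a probe and Sycp1 had none, against 19084 genes measured in all. The 31 genes were ordered by the stage at which they are best known: 2 premeiotic, 5 meiotic and 24 spermatid genes. Only Odf2 had more than 1 probe, with 2.

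Each sample was hybridised to 1 single-colour (Cy5) array after RNA amplification. MEF is 1 array of embryonic fibroblasts, taken at 13.5 days post coitus and transduced with a mock vector. iLC is 2 arrays of such fibroblasts transduced with Dmrt1, Gata4 and Nr5a1 (12 hours with lentivirus, then a medium with PDGFAA at 10 ng/ml and IGF at 50 ng/ml), which the labels call induced Leydig-like cells. Leydig is 2 arrays of Leydig cells isolated from testes of mice aged 56 days, an age at which the tubules hold every stage of germ cell. How the Leydig cells were purified, the strain of the mice, how long iLC were cultured and whether the mock-transduced cells entered the same medium were not given in the sources used here. The labels do not say whether the 2 arrays of a group had separate cultures or animals behind them, so p-values measure only the spread between these arrays, which may be technical. The probes of the delivered factors showed no called rise in iLC over MEF: Dmrt1 read 333 and 427 against 397, Gata4 4127 and 3149.6 against 6773, and Nr5a1 1509 and 1158 against 1265 (limma, adjusted p = 0.954, 0.368 and 0.964). Whether these probes read the delivered sequences is not known here, so iLC below means the arrays so labelled. MEF and iLC arrays are together called the 3 fibroblast-derived arrays.

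Male germ cells divide as spermatogonia, pass through meiosis as spermatocytes and are reshaped into sperm as haploid spermatids. In spermatids the histones are replaced first by transition proteins and then by protamines, an acrosome forms over the head, and a tail is built from dense fibres, a fibrous sheath and a sheath of mitochondria. All of this takes place inside the seminiferous tubules next to Sertoli cells, and Leydig cells, which make testosterone, are not known as a source of protamine or sperm tail transcripts. In bulk RNA such as this, more cells of a type and more RNA per cell of that type cannot be told apart.

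Many of the 31 genes were higher on both Leydig arrays than on any fibroblast-derived array, among them Dazl, Ldhc and the protamine genes, but the 2 Leydig arrays carried very unequal amounts of the spermatid transcripts. On both Leydig arrays, 19 of the 31 genes lay above all 3 fibroblast-derived arrays, where 19.0% of all genes did, and 0 lay below all 3, where 19.8% of all genes did. Leydig replicate 1 was at least 4-fold above the highest fibroblast-derived array for 12 of the 31 genes (2.43% of all genes) and Leydig replicate 2 for 19 (3.76% of all genes). Between the Leydig arrays, 14 genes were at least 4-fold higher on replicate 2 (1.84% of all genes), 13 of them spermatid genes and the other Pgk2. In the other direction, 1 gene was at least 4-fold lower on replicate 2 (Capza3; 0.351% of all genes). Folds between single arrays were taken on the scale used throughout, log2(intensity + 16), where 4-fold is a difference of 2, wherever genes were counted as at least 4-fold apart; the fold of a named gene between the Leydig arrays is the plain ratio of its intensities. Neither carries a p-value. The median difference of replicate 2 from replicate 1 was 1.80 over the 31 genes and -0.06 over all genes. By stage it was -0.21 for the premeiotic, 1.15 for the meiotic and 3.14 for the spermatid genes. Summed intensity over the 31 probes was 44840.2 in MEF, 39515 and 39122 in iLC, and 100408 and 1894580 in Leydig replicates 1 and 2. Levels of different probes are not comparable, and a few bright probes lead these sums. Oaz3, Odf1 and Smcp read 397097, 356634 and 313236 on replicate 2, and Odf2 read 20641 on MEF.

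**Figure D1:**
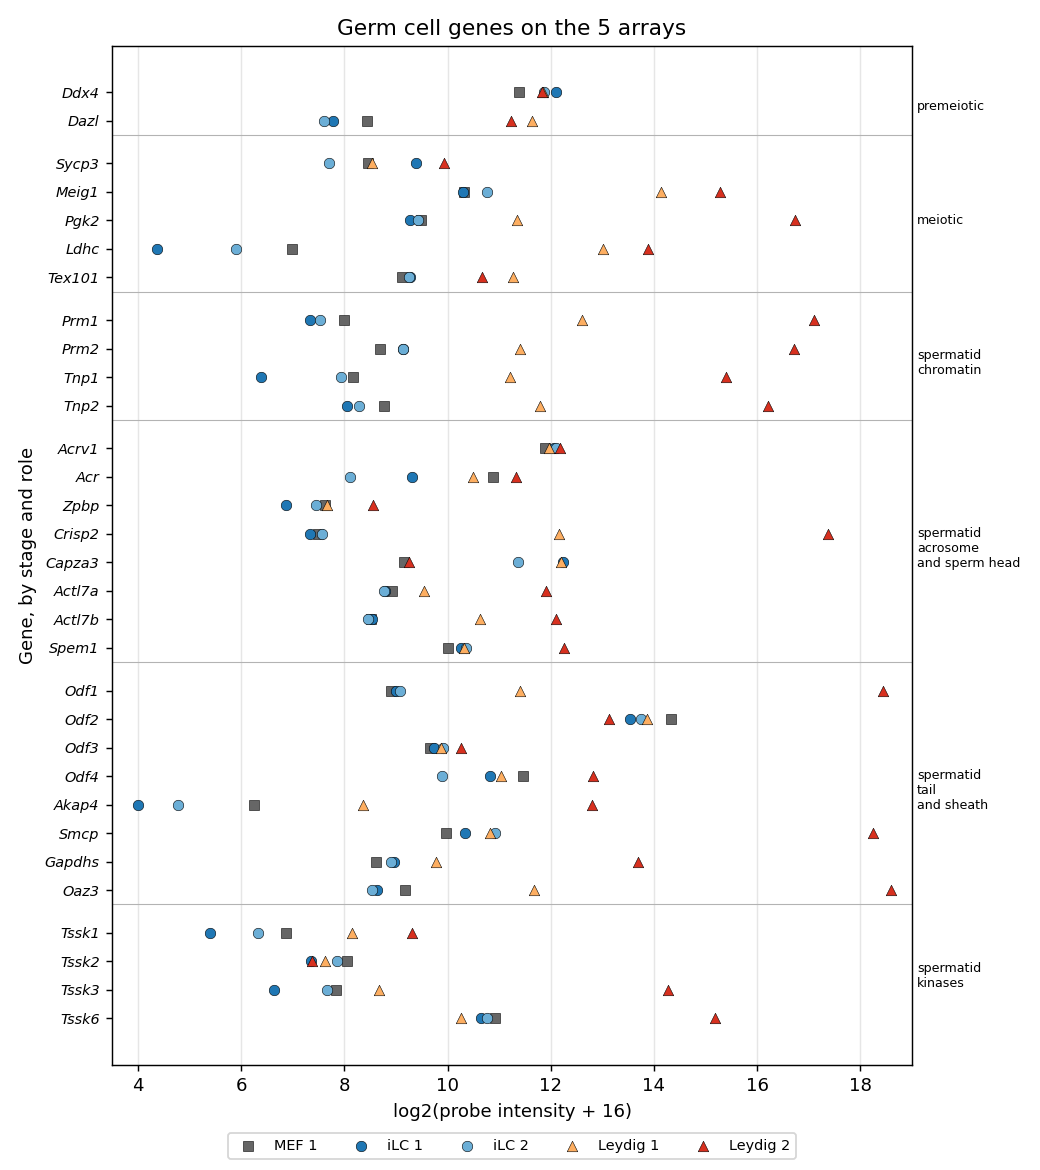
Level of the 31 germ cell genes on each of the 5 arrays, as log2(probe intensity + 16), with genes in rows ordered by stage and role, squares for MEF, circles for iLC and triangles for Leydig; 1 point is 1 array. The Leydig triangles lie right of the other symbols for 19 genes, and the red triangle (replicate 2) lies far right of the orange one (replicate 1) in the chromatin group and for Odf1, Smcp and Oaz3, while Dazl and Tex101 have both triangles close together; levels of different probes are not comparable with each other.

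The premeiotic genes were Ddx4, an RNA helicase of germ cells, and Dazl, an RNA-binding protein that germ cells need to develop. Dazl had an intensity of 329 in MEF, 205 and 179 in iLC, and 3150.1 and 2389 in Leydig replicates 1 and 2. Both Leydig values stood far above the other 3 and the groups did not overlap, with the higher value on replicate 1. The Leydig minus iLC difference of Dazl was 3.73 ± 0.32 (log2 scale, ± standard error here and below; limma, adjusted p = 0.00191), and it was 3.00 ± 0.39 against MEF (limma, adjusted p = 0.0105). For Ddx4, intensities were 2668 (MEF), 4360.2 and 3709.9 (iLC), and 3672 and 3609 (Leydig replicates 1 and 2). The 2 Leydig values of Ddx4 lay inside the range of the other arrays, and Leydig minus iLC was -0.14 ± 0.30 (limma, adjusted p = 0.810). The probes of the 2 genes of this stage therefore stood on opposite sides of the threshold. The Ddx4 probe read above the array median on every array, MEF included (2668 against a median of 1144). Whether that probe follows the Ddx4 transcript was not tested, so its flat values cannot show that the 2 transcripts differed. The premeiotic median between the Leydig arrays rests on the same 2 probes.

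Among the meiotic genes, Ldhc, the germ cell subunit of lactate dehydrogenase, and Meig1, a meiosis-expressed gene whose product spermatids later need, were high on both Leydig arrays. Ldhc read 110.4 on MEF, 4.50 and 43.3 on iLC, and 8223 and 15116 on Leydig replicates 1 and 2. Meig1 had an intensity of 1265 in MEF, 1249 and 1714 in iLC, and 17892 and 39758 in Leydig replicates 1 and 2. In both genes the Leydig arrays lay far above the other 3, and replicate 2 was above replicate 1 by 1.84-fold for Ldhc and 2.22-fold for Meig1 in intensity. Ldhc differed from iLC by 8.32 ± 0.58 (limma, adjusted p = 0.00129) and from MEF by 6.47 ± 0.71 (limma, adjusted p = 0.00676). The iLC values of Ldhc lay at the low end of those arrays, and its Leydig minus iLC difference ran from 5.70 with values floored at each array's 20th percentile to 9.48 with an added constant of 1, passing in both. Meig1 rose by 4.17 ± 0.46 over iLC (limma, adjusted p = 0.00374) and by 4.38 ± 0.56 over MEF (limma, adjusted p = 0.00985).

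For Tex101, intensities were 539 (MEF), 606 and 594 (iLC), and 2451 and 1610.0 (Leydig replicates 1 and 2). Tex101, a surface glycoprotein of germ cells, thus had its higher Leydig value on replicate 1, like Dazl, with no overlap between groups. Its Leydig minus iLC difference was 1.70 ± 0.34 (limma, adjusted p = 0.0281), a call lost in 4 of 16 alternatives, each with 1 array left out. Pgk2 had an intensity of 699 in MEF, 602 and 674 in iLC, and 2601 and 109689 in Leydig replicates 1 and 2. Pgk2, a germ cell phosphoglycerate kinase transcribed from meiosis into the spermatid stage, stood above the fibroblast-derived arrays on both Leydig arrays, but replicate 2 was 42.2-fold above replicate 1. Its Leydig minus iLC difference of 4.70 ± 1.56 did not pass (limma, adjusted p = 0.115). Sycp3 had an intensity of 334 in MEF, 656 and 193 in iLC, and 356 and 953 in Leydig replicates 1 and 2. Sycp3, a lateral element protein of the synaptonemal complex, overlapped between groups (limma, Leydig minus iLC 0.68, adjusted p = 0.585).

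The 4 chromatin genes, the protamines Prm1 and Prm2 and the transition proteins Tnp1 and Tnp2 that precede protamines on spermatid DNA, shared a pattern. For Prm1, intensities were 238 (MEF), 144 and 168 (iLC), and 6235 and 141591 (Leydig replicates 1 and 2). Prm2 read 399.6 on MEF, 546 and 545 on iLC, and 2711 and 108052 on Leydig replicates 1 and 2. Each protamine was at least 4-fold above the highest fibroblast-derived array already on Leydig replicate 1, and replicate 2 exceeded replicate 1 by 22.7-fold for Prm1 and 39.9-fold for Prm2. Tnp1 had an intensity of 272 in MEF, 67.5 and 230.1 in iLC, and 2339.8 and 42900.1 in Leydig replicates 1 and 2. Tnp2 had an intensity of 422 in MEF, 249 and 294 in iLC, and 3525 and 75706 in Leydig replicates 1 and 2. Replicate 2 was 18.3-fold above replicate 1 for Tnp1 and 21.5-fold for Tnp2, and in none of the 4 genes did Leydig and fibroblast-derived values overlap. Of these, 3 rose over iLC with limma: Prm1 by 7.44 ± 1.31 (adjusted p = 0.0182), Tnp1 by 6.13 ± 1.30 (adjusted p = 0.0332) and Tnp2 by 5.84 ± 1.29 (adjusted p = 0.0379). The calls of Tnp1 and Tnp2 were lost with an added constant of 1, and those of Prm1, Tnp1 and Tnp2 with aligned low ends. All 3 were also lost on leaving out iLC replicate 1 or 2, and that of Tnp1 without Leydig replicate 2. The call was thus lost in 3 of 16 alternatives for Prm1, 5 of 16 for Tnp1 and 4 of 16 for Tnp2. Prm2 had a difference of 4.93 ± 1.54 and did not pass (limma, adjusted p = 0.0981). None of the 4 passed against MEF with limma, where the differences were 6.87, 5.37, 5.13 and 5.22 in the same order, with the lowest adjusted p at 0.0589. Prm1 passed against MEF in 8 of 15 alternatives (adjusted p from 0.0133 to 0.107).

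Several of these genes sit side by side in the mouse genome. In the RefSeq gene order of assembly GRCm38.p6, Prm2 and Prm1 have 0 protein-coding genes between them, Tnp2 and Prm2 have 1 (Prm3), and the pairs Tssk1 and Tssk2, and Actl7b and Actl7a, have 0. RefSeq promoter sequences (250 bases before to 50 after each gene's start, GRCm38.p6) were found for 27 of the 31 genes, some with more than 1 start; a gene was counted once if any of its promoters held a motif, and so were the 27025 gene symbols of the table. The element TGACGTCA, bound by the spermatid activator CREM among others, was found for 0 of these 27 genes and for 2.03% of all symbols, searched on both strands. The looser TGACNTCA (TGANGTCA on the other strand), which includes it, was found for 10 of 27, namely Tex101, Prm1, Tnp1, Actl7a, Actl7b, Akap4, Smcp, Gapdhs, Tssk1 and Tssk2, and for 10.0% of all symbols. TATAAA, on either strand, was found for 2 of 27, Prm2 and Crisp2, and for 15.7% of all symbols. A match is a description of letters and not a bound site. The 120 bases that end just before the start of Prm1 (chr16:10796824-10796943, minus strand), Tnp1 (chr1:73015900-73016019, minus strand), Tssk1 (chr16:17894083-17894202, plus strand) and Tssk2 (chr16:17898517-17898636, plus strand) are given 5′ to 3′ on the strand of the gene with TGACNTCA matches in capitals, because Prm1 and Tnp1 were among the genes furthest apart between the Leydig arrays and the neighbours Tssk1 and Tssk2 were not.
Prm1: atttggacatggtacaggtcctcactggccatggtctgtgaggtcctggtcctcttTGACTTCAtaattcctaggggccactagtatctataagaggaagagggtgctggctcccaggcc
Tnp1: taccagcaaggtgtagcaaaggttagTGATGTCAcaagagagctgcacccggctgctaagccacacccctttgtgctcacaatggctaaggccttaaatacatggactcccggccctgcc
Tssk1: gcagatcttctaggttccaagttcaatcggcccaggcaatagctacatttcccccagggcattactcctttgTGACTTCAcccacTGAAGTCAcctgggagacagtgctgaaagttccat
Tssk2: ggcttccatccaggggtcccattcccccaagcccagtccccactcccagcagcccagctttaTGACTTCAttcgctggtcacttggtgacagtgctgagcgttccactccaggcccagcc
The match begins 64 bases before the start in Prm1, 94 in Tnp1 and 58 in Tssk2, and Tssk1 has 2, at 48 and 35. Of the 10 genes with TGACNTCA, 6 were at least 4-fold higher on Leydig replicate 2 than on replicate 1 (1.84% of all genes). Of the 17 without it, 6 were. Acr, Odf1, Oaz3 and Capza3 had no promoter sequence and are outside this split, though Odf1 and Oaz3 were also at least 4-fold higher on replicate 2. A link between the motif and the gap was not tested.

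The 8 acrosome and head genes were mixed. Crisp2, a cysteine-rich protein of the acrosome and tail, showed the pattern of the protamines. Crisp2 read 164 on MEF, 145 and 174 on iLC, and 4553 and 169744 on Leydig replicates 1 and 2. Both Leydig values lay far above the rest, and replicate 2 was 37.3-fold above replicate 1. Crisp2 rose over iLC by 7.31 ± 1.51 (limma, adjusted p = 0.0305). That call was lost in 4 of 16 alternatives: an added constant of 1, aligned low ends, and leaving out iLC replicate 1 or 2. Actl7b had an intensity of 349.5 in MEF, 354 and 336 in iLC, and 1569 and 4359 in Leydig replicates 1 and 2. For Actl7a, intensities were 469 (MEF), 426 and 419 (iLC), and 729 and 3820.3 (Leydig replicates 1 and 2). The actin-like genes Actl7b and Actl7a, neighbours whose proteins lie in the sperm head, had no overlap between Leydig and fibroblast-derived arrays, and replicate 2 was above replicate 1 by 2.78-fold and 5.24-fold. Actl7b rose by 2.87 ± 0.51 over iLC (limma, adjusted p = 0.0187) and by 2.85 ± 0.63 over MEF (limma, adjusted p = 0.0491), while Actl7a had 1.95 ± 0.73 over iLC without passing (limma, adjusted p = 0.155). The Actl7b call was lost in 4 of 16 alternatives against iLC and in 7 of 15 against MEF.

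Acr read 1872 on MEF, 617 and 260.1 on iLC, and 1433 and 2568 on Leydig replicates 1 and 2. Acr, the acrosomal protease acrosin, passed against iLC (2.21 ± 0.51, limma, adjusted p = 0.0430), a call lost in 5 of 16 alternatives, yet its MEF value lay between the Leydig values and the MEF difference was 0.04 (limma, adjusted p = 0.988). Spem1 had an intensity of 1015 in MEF, 1215 and 1301 in iLC, and 1255 and 4857 in Leydig replicates 1 and 2. Spem1, which spermatids need to shed their cytoplasm, was therefore high on replicate 2 alone. For Capza3, intensities were 557 (MEF), 4838 and 2623 (iLC), and 4702 and 593 (Leydig replicates 1 and 2). Capza3, a subunit of the actin-capping protein of the sperm head, ran the other way, with Leydig replicate 2 near MEF and replicate 1 near the iLC arrays. Acrv1, an acrosomal vesicle protein, and Zpbp, which binds the egg coat, had Leydig minus iLC differences of -0.0031 and 0.95 and did not pass (limma, adjusted p = 0.996 and 0.219). Acrv1 read from 3792 to 4628 over the 5 arrays, and Zpbp read 186 and 362 on the Leydig arrays against a highest fibroblast-derived value of 182.

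The 8 genes of the tail, its sheaths and late spermatid regulation held the widest gaps between the Leydig arrays. Smcp, a protein of the mitochondrial capsule, was near its fibroblast-derived values on replicate 1 and far above them on replicate 2. Smcp read 981 on MEF, 1274 and 1908 on iLC, and 1800.2 and 313236 on Leydig replicates 1 and 2. Odf1 had an intensity of 462 in MEF, 494 and 521 in iLC, and 2692 and 356634 in Leydig replicates 1 and 2. For Oaz3, intensities were 562 (MEF), 378 and 354 (iLC), and 3240.4 and 397097 (Leydig replicates 1 and 2). Replicate 2 exceeded replicate 1 by 174-fold for Smcp, 132-fold for Odf1, a protein of the outer dense fibres, and 123-fold for Oaz3, the antizyme of haploid germ cells. Among all 19084 genes ordered by that difference, Smcp, Odf1 and Oaz3 were in the first 10, 11 of the 31 genes were in the first 50 and 13 in the first 100. Odf1 and Oaz3 were above all 3 fibroblast-derived arrays on both Leydig arrays, whereas for Smcp replicate 1 lay inside their range. Their differences from iLC, 3.92 ± 2.14, 5.89 ± 2.02 and 6.56 ± 1.99, did not pass (limma, adjusted p = 0.308, 0.125 and 0.0924).

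Akap4 had an intensity of 60.3 in MEF, -25.9 and 11.4 in iLC, and 314 and 7127 in Leydig replicates 1 and 2. Akap4, the main protein of the fibrous sheath and an anchor for protein kinase A, rose over iLC by 6.20 ± 1.31 (limma, adjusted p = 0.0330), with replicate 2 at 22.7-fold over replicate 1. Its iLC values lay at the low end of those arrays, 1 of them below 0, and the call was lost in 6 of 15 alternatives. Among them were an added constant of 1 (8.74) or 64 (4.57), aligned low ends (6.50) and a floor at the 20th percentile (2.83). The others each left out 1 iLC array. Gapdhs had an intensity of 377 in MEF, 481 and 463 in iLC, and 858 and 13139.8 in Leydig replicates 1 and 2. Gapdhs, the sperm form of glyceraldehyde-3-phosphate dehydrogenase, did not overlap between groups, replicate 2 was 15.3-fold above replicate 1, and its difference from iLC of 2.80 ± 1.15 did not pass (limma, adjusted p = 0.186). Odf4, read at 2070.0 and 7254 on the Leydig arrays and up to 2817 on the others, and Odf3, at 927 and 1207 against up to 945, did not pass against iLC (limma, adjusted p = 0.187 and 0.679).

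The 2 Odf2 probes disagreed. Odf2 codes for a dense fibre protein that is also part of the centrosome of somatic cells. For Odf2, intensities were 20641 (MEF), 11795 and 13819 (iLC), and 14903 and 8971 (Leydig replicates 1 and 2). That probe, the one of highest mean and the one used, had its lowest value on Leydig replicate 2, and Leydig minus iLC was -0.14 ± 0.37 (limma, adjusted p = 0.844). The other Odf2 probe read 2572 in MEF, 2866 and 4735 in iLC, and 5852 and 46173 in Leydig replicates 1 and 2. On that probe both Leydig values were above the rest, with replicate 2 above replicate 1 by 2.98 on the log2 scale. Which transcript each probe reads was not tested.

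Of the 4 testis-specific serine kinases, Tssk3 and Tssk6 were at least 4-fold higher on Leydig replicate 2 than on replicate 1, and Tssk1 and Tssk2 were not. Tssk3 read 214 on MEF, 83.3 and 187 on iLC, and 389 and 19677 on Leydig replicates 1 and 2. Tssk6 had an intensity of 1911 in MEF, 1586 and 1732 in iLC, and 1206 and 37160.5 in Leydig replicates 1 and 2. Replicate 2 was 50.6-fold above replicate 1 for Tssk3 and 30.8-fold for Tssk6, and replicate 1 of Tssk6 was the lowest of its 5 values. Neither passed against iLC (4.31 and 2.01; limma, adjusted p = 0.158 and 0.430). Tssk1 had an intensity of 101 in MEF, 25.9 and 63.98 in iLC, and 266 and 622 in Leydig replicates 1 and 2. Tssk1 rose over iLC by 2.87 ± 0.52 (limma, adjusted p = 0.0197) with replicate 2 at 2.34-fold over replicate 1. That call was lost in 3 of 14 alternatives, among them a floor at the 20th percentile, and the difference ran from 0.98 to 3.46. Tssk2 read 247 on MEF, 147 and 215 on iLC, and 181 and 149.7 on Leydig replicates 1 and 2. Tssk2, whose promoter is printed beside that of its neighbour Tssk1, overlapped between groups at -0.11 (limma, adjusted p = 0.874).

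**Figure D2:**
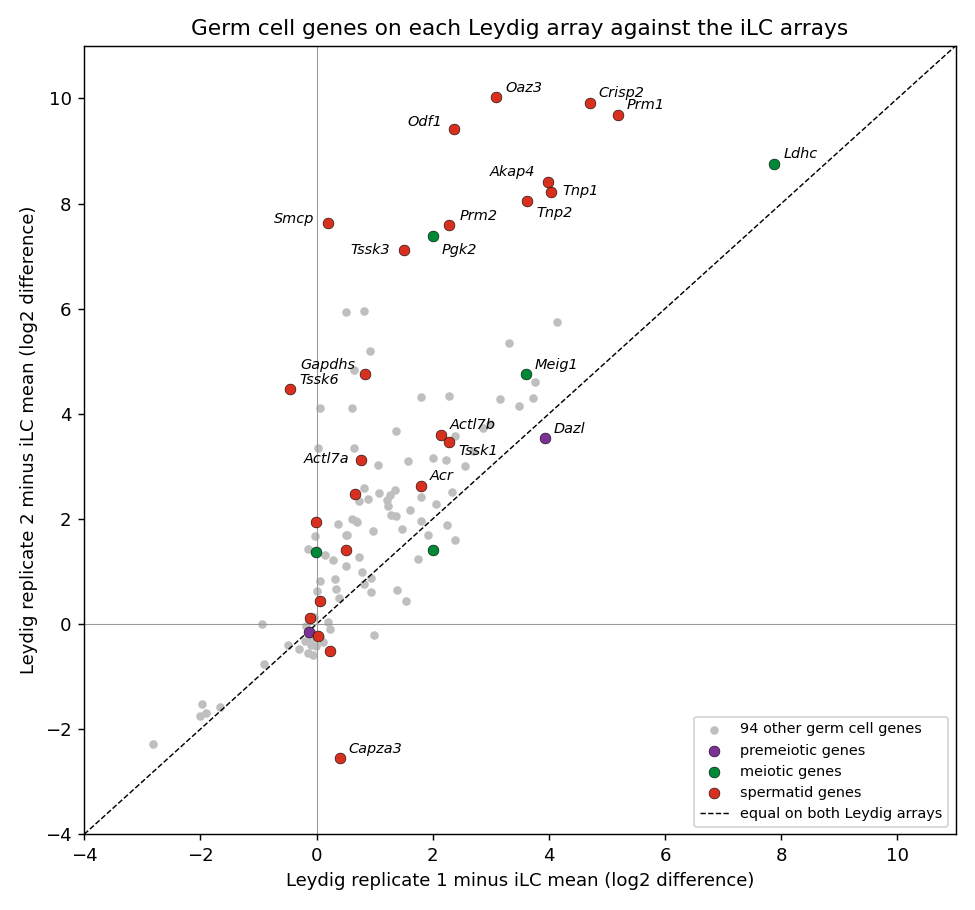
Difference of Leydig replicate 2 from the iLC mean (vertical axis) against that of Leydig replicate 1 (horizontal axis), both in log2 units, for the 31 germ cell genes (coloured by stage) and 94 other germ cell genes (grey); 1 point is 1 gene and the dashed line marks equality. The meiotic gene Ldhc and the premeiotic gene Dazl lie near the line, while Smcp, Odf1, Oaz3, Tssk3, Prm2 and Pgk2 stand far above it; both axes share the iLC mean.

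Over the 31 genes, limma's fit over all genes and 5 arrays called 12 higher in Leydig than iLC and 0 lower, where a call is a Benjamini-Hochberg adjusted p under 0.05. Of all genes 5.65% were called higher and 5.72% lower in that comparison. At an unadjusted p under 0.05, 19 of the 31 and 5125 of all genes passed in either direction. By group the 12 were 1 of 2 premeiotic, 3 of 5 meiotic, 3 of 4 chromatin, 3 of 8 acrosome and head, 1 of 8 tail and sheath and 1 of 4 kinase genes. The median Leydig minus iLC difference was 2.87 over the 31 genes and 0.03 over all genes. Against MEF, 4 of 31 were called higher (Dazl, Meig1, Ldhc and Actl7b, against 3.34% of all genes) and 0 lower (3.97% of all genes). At an unadjusted p under 0.05 with limma, 14 of the 31 and 3787 of all genes passed against MEF in either direction. The medians were 2.85 over the 31 genes and -0.10 over all genes. These 2 comparisons share the Leydig arrays, so the second adds no separate Leydig sample, and the lone MEF array was taken to vary like the pairs. An exact permutation test of 2 arrays against 2 cannot give a two-sided p under 0.333, so none was used for single genes.

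Between iLC and MEF, limma called 0 of the 31 genes in either direction, where 0.278% of all genes were called higher and 0.283% lower. At an unadjusted p under 0.05, 2 of the 31 genes and 3005 of all genes passed in that comparison. The median difference was -0.15 over the 31 genes and -0.11 over all genes. The widest were Capza3, 2.64 (limma, adjusted p = 0.331), and Acr, -2.18 (limma, adjusted p = 0.184). For the 4 chromatin genes the differences ran from -1.01 (Tnp1) to 0.43 (Prm2), with standard errors of 1.58 to 1.88. The fit gives each gene a single spread from the iLC and Leydig pairs, so these standard errors carry the gap between the Leydig arrays. Replicate 2 minus replicate 1 of iLC was 0.20 (Prm1), -0.0029 (Prm2), 1.56 (Tnp1) and 0.23 (Tnp2). Where the Leydig arrays lie far apart, a missing call between iLC and MEF therefore says little.

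**Figure D3:**
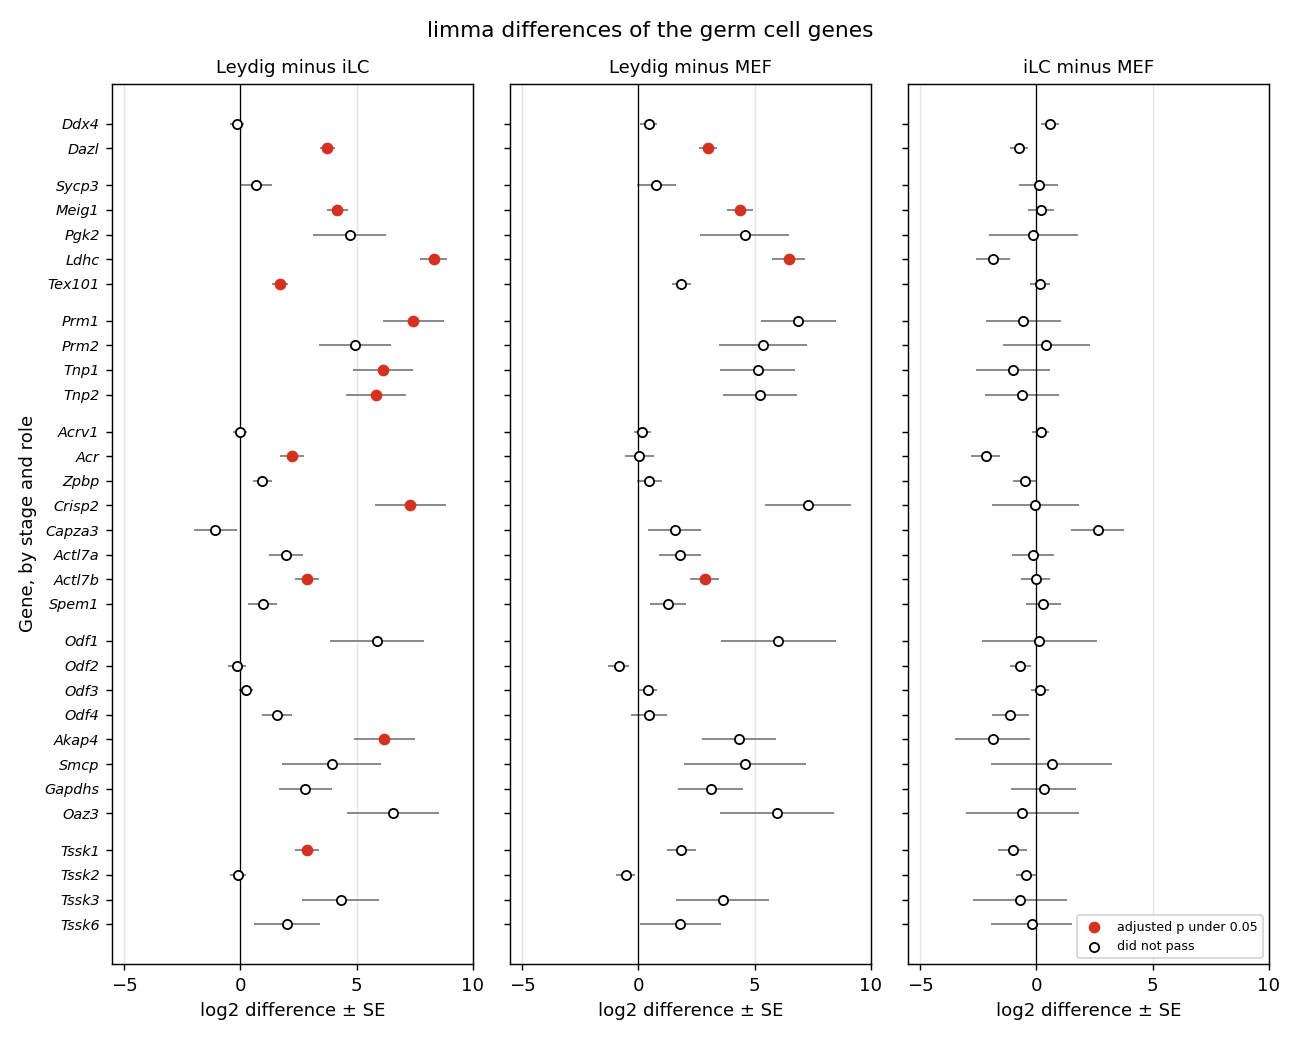
limma log2 differences ± standard error of the 31 germ cell genes in the 3 comparisons of 2 Leydig, 2 iLC and 1 MEF arrays; filled red points have an adjusted p under 0.05 and open points do not. Wide error bars belong to genes such as Smcp, Odf1 and Oaz3, whose Leydig arrays differ most, and the third panel has no filled point.

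The number of genes called higher than iLC changed with the Leydig array that was left out. Without Leydig replicate 2, 8 of the 31 genes were called higher (1.90% of all genes): Dazl, Meig1, Ldhc, Prm1, Tnp2, Crisp2, Akap4 and Oaz3, of which all but Oaz3 were among the 12. Without Leydig replicate 1, 19 were called higher (4.0% of all genes), 10 of them among the 12; Tex101 and Acr were lost, and Pgk2, Prm2, Actl7a, Odf1, Smcp, Gapdhs, Oaz3, Tssk3 and Tssk6 were gained. Without iLC replicate 1 there were 4 (Dazl, Meig1, Ldhc and Acr; 2.16% of all genes), and without iLC replicate 2 also 4 (Dazl, Meig1, Ldhc and Tssk1; 2.81%). Dazl, Meig1 and Ldhc were called higher than iLC in each of these 4 fits. Without replicate 2 the differences of the spermatid genes were smaller, as with Prm1 at 5.19, Crisp2 at 4.70 and Smcp at 0.20, and without replicate 1 they were 9.69, 9.92 and 7.64. With 1 Leydig array left, that array was taken to vary like the iLC pair. The median over the 31 genes was 1.79 with replicate 1 as the only Leydig array and 3.60 with replicate 2. Against MEF, 17 genes were called higher without Leydig replicate 1 (2.00% of all genes) and 2 without replicate 2 (Prm1 and Crisp2; 0.414%).

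Other germ cell genes, from lists drawn up with earlier results of these data known, had the wider gap between the Leydig arrays in the spermatid list as well. Of 101 listed, 94 were measured; limma called 24 higher and 5 lower in Leydig than iLC (5.65% and 5.72% of all genes), and 8 higher and 1 lower than MEF (3.34% and 3.97% of all genes). The 5 lower of 94 are near the share of all genes. Premeiotic genes numbered 18 measured, with 6 called higher and 3 lower than iLC, against those 5.65% and 5.72%, and a median replicate 2 minus replicate 1 difference of 0.15. Mael had an intensity of 269.8 in MEF, 213 and 305 in iLC, and 3661 and 6575 in Leydig replicates 1 and 2. Mael, which silences transposons in germ cells, was well above the other arrays on both Leydig arrays, and so were Zbtb16, at 2333 and 3508 against at most 268, and Dmrtb1, at 3520.4 and 6465 against at most 498. Meiotic genes numbered 24, with 7 called higher and 0 lower and a median difference between the Leydig arrays of 0.13. For Syce1, intensities were 251 (MEF), 177 and 271 (iLC), and 1849 and 3282 (Leydig replicates 1 and 2). Syce1, a central element protein of the synaptonemal complex, and the cohesin Stag3 (2029 and 2294 on the Leydig arrays, at most 472 elsewhere) were closer between the Leydig arrays than the protamine genes, as was Meiob, a recombination protein, at 557 and 656 against at most 199. The 1 meiotic gene at least 4-fold higher on replicate 2 was Syce2, named after its values were seen.

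Spermatid genes outside the 31 numbered 52 measured of 57, with 11 called higher and 2 lower than iLC, against the same 5.65% and 5.72% of all genes. Of these 52, 47 were higher on Leydig replicate 2 than on replicate 1, against 8641 of all 19084 genes, and 11 were at least 4-fold higher (1.84% of all genes); the median difference was 1.18. Gk2 read 111 on MEF, 25.9 and 75.3 on iLC, and 1079 and 3311 on Leydig replicates 1 and 2. Adam3 had an intensity of 97.1 in MEF, 14.6 and 33.0 in iLC, and 371 and 1555 in Leydig replicates 1 and 2. Gk2, a testis glycerol kinase, and Adam3, a sperm surface protein, were above all 3 fibroblast-derived arrays on both Leydig arrays, as was Adam2, at 885 and 1407 against at most 205. Replicate 2 was 3.07-fold above replicate 1 for Gk2 and 4.19-fold for Adam3. Genes of this list named after their values were seen had wider gaps, such as 45.0-fold for Klhl10 and 35.99-fold for Spata18, neither of which passed against iLC (limma, adjusted p = 0.258 and 0.212).

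**Figure D4:**
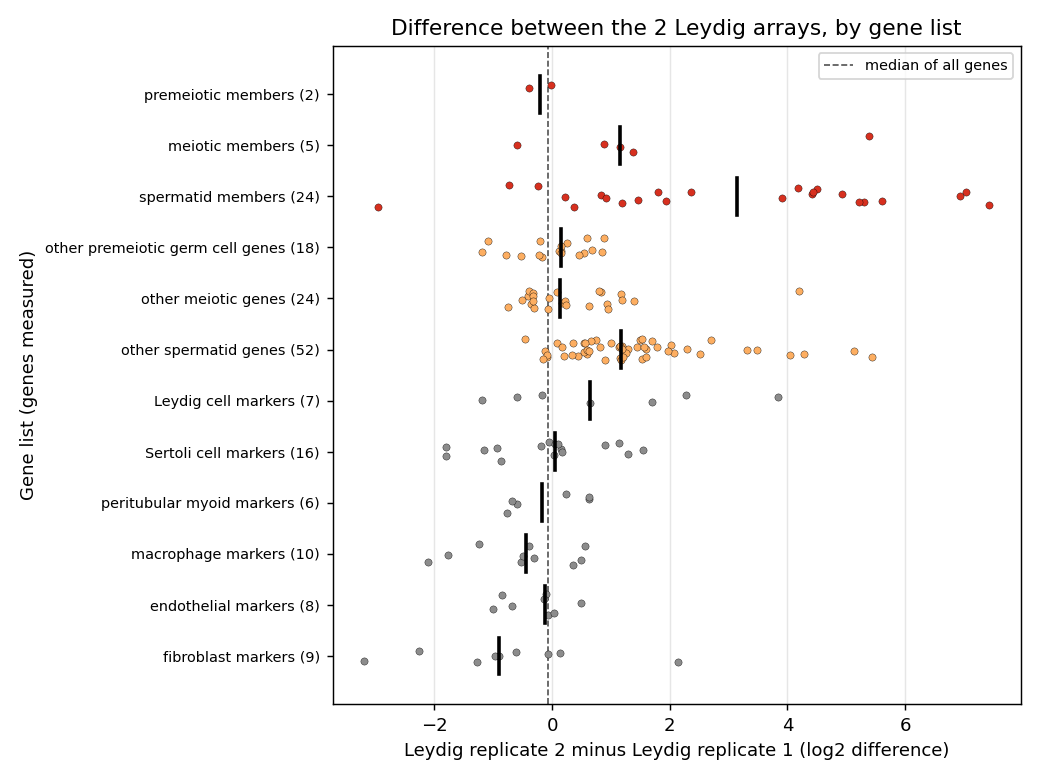
Difference of Leydig replicate 2 from Leydig replicate 1, in log2 units, for each gene of 12 lists (1 point is 1 gene, the black bar is the list's median, the number measured is in brackets, and the dashed line is the median of all genes). The spermatid lists lie furthest right, with medians of 3.14 (members) and 1.18 (other genes). The meiotic members, at 1.15, lie close to the latter, and the premeiotic and other meiotic lists lie near the dashed line.

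Markers of the cells that the preparations could hold were read beside these genes. In all of the following lists, calls against iLC stand beside 5.65% of all genes called higher and 5.72% lower. Of 11 Leydig cell markers 7 were measured, and limma called 3 higher than iLC and 0 lower. Nr5a1, a steroidogenic transcription factor, read 68030.1 and 44721 on the Leydig arrays and at most 1509 elsewhere. Hsd3b1, a steroid dehydrogenase, read 218338 and 95740.3 on the Leydig arrays and 27160 and 34513 on iLC. Cyp17a1, needed for androgen synthesis, read 40614 and 197728, and so was higher on the array with more spermatid signal. Star, which moves cholesterol into mitochondria, read 1368 and 19703 on the Leydig arrays and more on iLC, 56878 and 73892. Its Leydig minus iLC difference of -3.63 did not pass (limma, adjusted p = 0.0984). Cyp11a1, the first enzyme of steroid synthesis, read 509.8 and 451 on the Leydig arrays, below its 3 fibroblast-derived values. The probes of steroidogenic markers were thus not all high on these Leydig arrays. The Cyp11a1 probe read from 451 to 907, below the array median on every array, fibroblast-derived or Leydig. Whether that probe follows the Cyp11a1 transcript was not tested, so its values cannot show that the transcript was low in the Leydig cells. Of the 7, Cyp17a1 and Star were at least 4-fold higher on replicate 2, and the median replicate 2 minus replicate 1 difference was 0.64.

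Sertoli cell markers, 16 of 16 measured, had 3 called higher (Aard, Clu and Cldn11) and 1 lower (Inhbb) than iLC. Their summed intensity was 64359 on MEF, 94823 and 127849 on iLC and 435234 and 542002 on the Leydig arrays, of which Clu alone gave 332720.0 and 369002, and the median replicate 2 minus replicate 1 difference was 0.04. On both Leydig arrays, 7 of the 16 lay above all 3 fibroblast-derived arrays (19.0% of all genes), namely Clu, Aard, Cldn11, Gata1, Wt1, Cst12 and Defb36, and 3 lay below (19.8% of all genes). Wt1, a transcription factor of Sertoli cells, read 3017 and 3128 against at most 2285. Amh, Sox9 and Rhox5, also Sertoli genes, read 89.2 and 216, 450.3 and 1119.9, and 255 and 245 on the Leydig arrays, none above its highest fibroblast-derived value. Aard read 50609 and 147767, and Cldn11, a tight junction protein, 4818 and 2505. Peritubular myoid markers (6 of 7 measured; 0 higher, 5 lower, among them Tagln, Acta2 and Myh11), macrophage markers (10 of 11; 0 higher, 4 lower, among them C1qa, C1qb and C1qc), endothelial markers (8 of 8; Cdh5 higher, Esam lower) and fibroblast markers (9 of 9; 1 higher, 5 lower, among them Fn1, Lox and Postn) had medians between the Leydig arrays of -0.18, -0.44, -0.12 and -0.91. The part of these cells in the difference between the Leydig arrays was not tested.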

How the data were processed

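Amplified RNA of 5 samples, 1 array each, was read in a single Cy5 channel, per the labels' protocols. The authors deposited 1 linear intensity per probe and array; how these were background-corrected and normalized was not given in the sources used here, and detection calls were not used, so no level over background could be set. Array medians ran from 1111 to 1230 and 1st percentiles from -10.1 to 83.8, so dim probes can differ between arrays through their low ends. Samples were grouped by title and cell type label; the number of arrays limits the precision.

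Deposited intensities were taken to log2 after 504 values below 0 were set to 0 and 16 was added, which shrinks differences of dim genes. Of 26423 probes 21876 had 1 gene symbol in the platform annotation; the probe of highest mean log2 stood for each of 19084 genes. limma 3.58.1 in R 4.3.3 (lmFit, eBayes; 1 mean per group, 2 residual and 4.21 prior degrees of freedom) was fitted over all 5 arrays, two-sided, with Benjamini-Hochberg adjustment over all genes at a threshold of 0.05, after tests on simulated data. Root mean square SDs between paired arrays were 0.459 (iLC) and 0.548 (Leydig). The members and all other lists were chosen with earlier results of these data known. Named genes were every member and, of each other list, up to 3 called genes of largest Leydig minus iLC difference; the 3 delivered factors, Star, Cyp11a1, Amh, Sox9, Rhox5, Clu, Wt1, Gata1, Cst12, Defb36, Syce2, Klhl10 and Spata18 were added after their values were seen. RefSeq tables (GRCm38.p6) gave gene order and promoters. Alternatives covered the added constant, dim-probe filters, centring, quantile normalization, a floor, aligned low ends, the mean of probes, an intensity trend, only the compared groups, a replicate block and leaving out each iLC or Leydig array. Sycp1, which had no named probe, was not analysed here.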

Additional observations from a re-analysis of the deposited data

How the results depend on the processing

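In all the alternatives run, 0 members were called lower in Leydig than in either other group, and 0 were called between iLC and MEF. The count of members higher in Leydig than iLC, 12, ran from 9 to 16 under most alternatives but was 7 with an added constant of 1, 5 with low ends aligned at the 1st percentile, 22 with the replicate block, and 4 to 19 with 1 array left out. With the replicate block 10.3% of all genes were called higher, against 5.65% without it, so 22 is not a gain of the members alone. The other counts of this paragraph stand without the share of all genes called in the same fit. They therefore cannot tell a change in the members from a change in calling over all genes. Same-numbered iLC and Leydig arrays deviated with a correlation of 0.06, so the replicate block pairs arrays that share only a number. Against MEF the count, 4, was 2 with an added constant of 1, 9 with median centring, 9 with quantile normalization, and 2 to 17 with 1 array left out, where the median difference ran from 1.27 to 3.58. Dazl, Meig1 and Ldhc were called higher than iLC under each alternative that kept them.

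Quantile normalization and aligned low ends moved the median iLC minus MEF difference of all genes from -0.11 to 0.05 and 0.12. The members' median then turned from -0.15 to 0.15 and 0.21, and was -0.04 with the filter on mean level. Among the 52 of 93 member differences that were called or at least 1 in size, these turned, with no call after the turn: Akap4 (0.51, quantile) and Tssk1 (0.53, quantile; 0.70, aligned low ends) between iLC and MEF, and, without Leydig replicate 2, Tssk6 (range with 1 array left out -0.45 to 4.47 against iLC and -0.66 to 4.27 against MEF) and Capza3 (-2.56 to 0.40 against iLC). The cause was not tested. Over these 52, 674 values kept direction and side of the threshold, 50 lost the call, 61 gained it and 6 changed sign. Of the other 41 differences, 16 changed sign in at least 1 alternative, and 0 were called in any; they include Acr (-0.38 to 0.45) and Odf4 (-0.44 to 1.36) against MEF, and Sycp3 (-0.16 to 1.52) and Tssk2 (-0.35 to 0.14) against iLC. The calls against iLC lost with aligned low ends were Prm1, Tnp1, Tnp2, Acr, Crisp2, Actl7b and Akap4.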
